A study of Daucus carota with 6 samples.

Results

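The miRNAs described here are 72 of the 469 in the table of this carrot study and carry a running number as their only name, from mir-1 to mir-73. They were chosen by the form of the name, with earlier results of these data known. The table has 1 further name of that form, which is not analysed here as a member and is counted with the other 397 miRNAs. All other names contain a species code and a miRNA number taken from the miRBase catalogue. In the table the members' names start with a word marking them as new, which has been dropped below. Sequences and genomic positions of the members are not reported here, so that the lack of a known relative rests on the names and could not be checked against the values.

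MicroRNAs of plants are cut from hairpin-shaped precursor transcripts by the RNase DICER-LIKE1 and are loaded on ARGONAUTE1, which then cleaves or represses messenger RNAs with a closely matching site. Families shared among land plants, such as miR396 and miR165, have known target genes. MicroRNAs found in a single lineage are often weakly expressed, and many of them have no known target. The sources used here give no tested target or role for any of the 72 members, so none is given.

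Commercial-grade carrots were disinfected with chlorine, peeled, shredded and freed of surplus water, and small RNA was sequenced from the shredded tissue. Shredding is the wounding treatment. T0 was shredded tissue without storage, T24 was the tissue after 24 h at 20 °C and T48 was the tissue after 48 h at 20 °C, with 2 libraries per time point and 6 in all. All groups were therefore wounded, and no library came from an uncut carrot. The labels do not say whether the libraries of a time point came from separate carrots, so p-values measure only the spread between these libraries, which may be technical. The library names of a time point share their first part and differ in a suffix. T0 and T24 have the same pair of suffixes and T48 has another pair, and the labels do not say what the suffix means. The table holds only miRNAs and therefore no markers of the tissue.

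Each value is the number of reads of a miRNA per 1000000 miRNA reads of its library (RPM). The values of every library were whole multiples of a smallest step, and read numbers are those for the smallest total that makes all values of a library whole. The libraries held 64886 to 199911 miRNA reads, with the lowest total in the first T48 library, where 1 read was worth 15.4 RPM. A single abundant miRNA, oan-miR-1421ag-5p, took 54.7% and 50.6% of the T24 reads and 46.8% of the reads in the second T48 library. It was listed at 0 in the first T48 library and in both of T0. Because RPM values are shares of a fixed total, members are given on the deposited scale and, where it matters, also as a share of the reads without this miRNA.

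The members showed 3 features in these libraries, which were also found among the other miRNAs. Most were listed in 1 library only, 1 of them (mir-64) was among the 9 most abundant miRNAs of every library, and a small group was listed in both T0 or both T24 libraries and at 0 in both of another time point. Of the 72 members, 58 (80.6%) were above 0 in 1 of the 6 libraries, 9 in 2, 4 in 3 and 1 in all 6. Among the 392 other miRNAs above 0 in any library, 268 (68.4%) were above 0 in a single library and 16 in all 6.

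**Figure D1:**
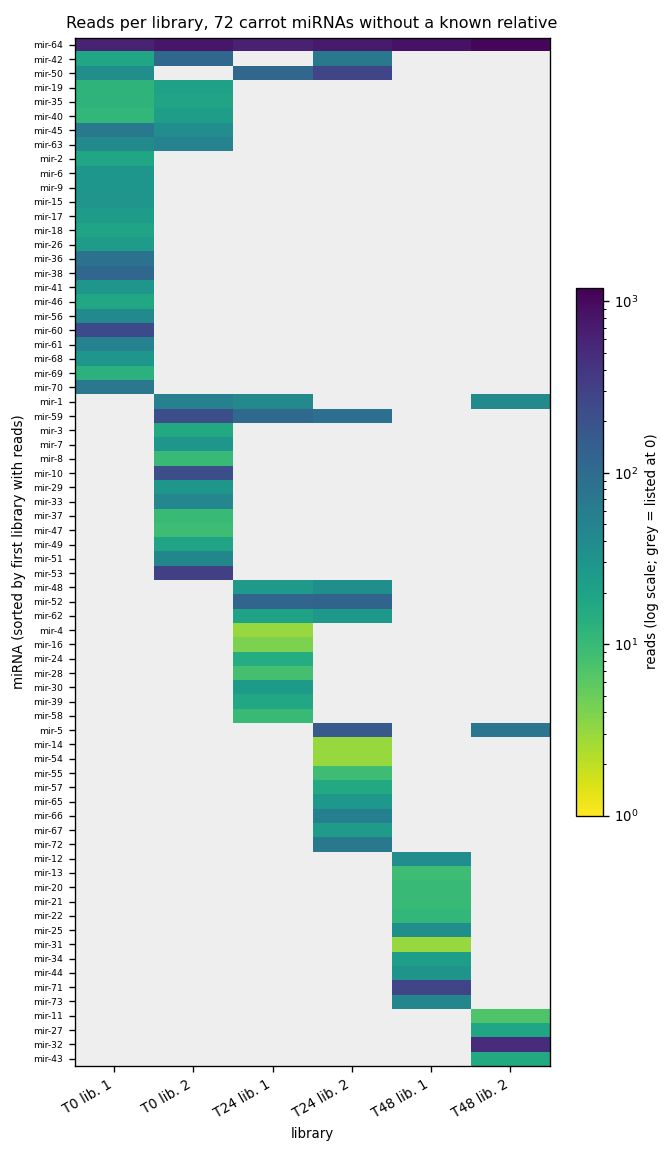
Reads of the 72 members (rows) in the 6 libraries (columns), with colour giving the number of reads on a log scale and grey a value of 0. The 58 members found in 1 library form a staircase, and mir-64 in the top row is the member with reads in all 6 libraries.

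Members with reads numbered 25 and 20 in the T0 libraries, 14 and 16 in those of T24, and 12 and 7 in those of T48. Counting a member as detected where at least 1 of the 2 libraries was above 0, 38 members were detected at T0, 24 at T24 and 18 at T48. The second T48 library had the most reads of all and the fewest members. Of its reads, 46.8% fell on oan-miR-1421ag-5p, as did 54.7% and 50.6% in the T24 libraries. These reads are part of the totals, and whether this bears on the number of members detected was not tested. Members made up 13.0% to 14.8% of the miRNAs detected in the other 5 libraries and 7.53% in that library.

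Detection in each of the paired libraries was the exception. It was found for 7 of the 38 members at T0 (18.4%), for 6 of 24 at T24 (25.0%) and for 1 of 18 at T48 (5.56%), which was mir-64. The other miRNAs were found in both libraries in 21.5% of 233 at T0, 32.2% of 149 at T24 and 27.3% of 128 at T48. The difference between members and other miRNAs was not tested. Reads at a single time point were found for 33 members at T0, for 18 at T24 and for 15 at T48. In 28 of the 33, 15 of the 18 and 15 of the 15, a single library carried the member. The sets of members seen at 1 time point are thus mostly sets of members seen in 1 library.

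Together the members took 1.08% and 1.19% of all reads in the T0 libraries, 0.892% and 1.27% in those of T24, and 2.06% and 0.870% in those of T48. The mean share was 1.13% ± 0.0737 (SD, n = 2) at T0, 1.08% ± 0.269 at T24 and 1.47% ± 0.843 at T48, and the T48 libraries lay on both sides of all others. Without the reads of oan-miR-1421ag-5p, the share was 1.97% and 2.58% for T24 and 2.06% and 1.64% for T48, each above both T0 libraries. The stored libraries were thus separate from T0 on the second scale and not on the first, and this difference was not tested.

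The median detected member had more reads than the median other miRNA, although single members stood at the lowest listed count, such as mir-31 with 3 reads in the first T48 library. The median detected member had 22.5 to 46 reads, and the median of the other detected miRNAs was 14.5 to 24 reads. The members' median was the higher of the pair in each of the 6 libraries. On the RPM scale the members' medians were 187 and 189 in the T0 libraries, 177 and 342 in those of T24, and 416 and 205 in those of T48.

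**Figure D2:**
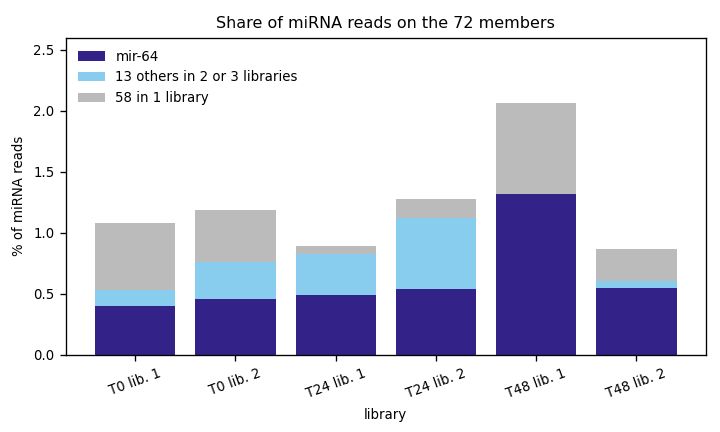
Bars give the percentage of each library's miRNA reads on the 72 members, split into mir-64, the 13 other members found in 2 or 3 libraries and the 58 found in 1 library. The first T48 library has the highest share, 2.06%, and none of its reads fall on the 13.

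The member with the highest level, mir-64, accounted for 36.9% to 63.8% of the members' reads in a library and ranked between 6th and 9th of all miRNAs. It was listed at 3987 and 4537 RPM at T0 (617 and 792 reads), at 4895 and 5398 RPM at T24 (622 and 725 reads), and at 13146 and 5457 RPM at T48 (853 and 1091 reads). All 4 stored libraries lay above both T0 libraries, and the first T48 library lay far above the other 3 stored ones. The means were 4262 ± 389 RPM at T0, 5146 ± 356 at T24 and 9302 ± 5437 at T48 (SD, n = 2).

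On this scale none of the pairwise changes of mir-64 passed the test. The log2 change was 0.27 (SE 0.84, limma adjusted p = 0.798) at T24 against T0. It was 0.99 (SE 1.26, limma adjusted p = 0.518) at T48 against T0. Between T48 and T24 it was 0.72 (SE 1.43, limma adjusted p = 0.732). This last change was 1.35 without the second T48 library and 0.086 without the first. The 4 stored libraries together averaged 7224 RPM against 4262 at T0, a ratio of 1.69 (exact two-sided permutation test, p = 0.4). Leaving out the first T48 library lowered the difference between these means from 2962 to 988 RPM.

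As a share of the reads without oan-miR-1421ag-5p, the libraries of a time point lay closer together. Then mir-64 kept its T0 values of 3987 and 4537 RPM and stood at 10808 and 10928 RPM in the T24 libraries and at 13146 and 10267 RPM in the T48 libraries. The T24 libraries averaged 10868 ± 84.6 RPM and the T48 libraries 11707 ± 2036 RPM (SD, n = 2), and they overlapped with each other but not with T0. The stored libraries averaged 2.65 times the T0 mean on this scale (exact two-sided permutation test, p = 0.0667). This is the smallest p that 4 libraries against 2 allow, since there are 15 arrangements, so the test cannot reach 0.05. When libraries were scaled by the median of ratios of the 17 miRNAs listed in all 6, the ratio was 1.83 (exact permutation p = 0.0667).

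The scale moved not only mir-64. Among the 23 miRNAs above 0 in all 4 libraries of T24 and T0, the median log2 change was -0.54 on the deposited scale and 0.54 without oan-miR-1421ag-5p. Relative to this median, mir-64 was higher at T24 by 0.82 on the log2 scale under either total. Leaving out oan-miR-1421ag-5p rescales all other miRNAs of a library alike. Apart from the pseudocount, a gap to the median therefore cannot differ between the totals. For T48 against T0, the median of the 19 such miRNAs moved from -0.0024 to 0.45, and mir-64 lay 1.00 above it under either total. For T48 against T24, it lay 0.15 above the median of 22. Ranked from the highest log2 change downwards, mir-64 was 7th of 23, 7th of 19 and 9th of 22.

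**Figure D3:**
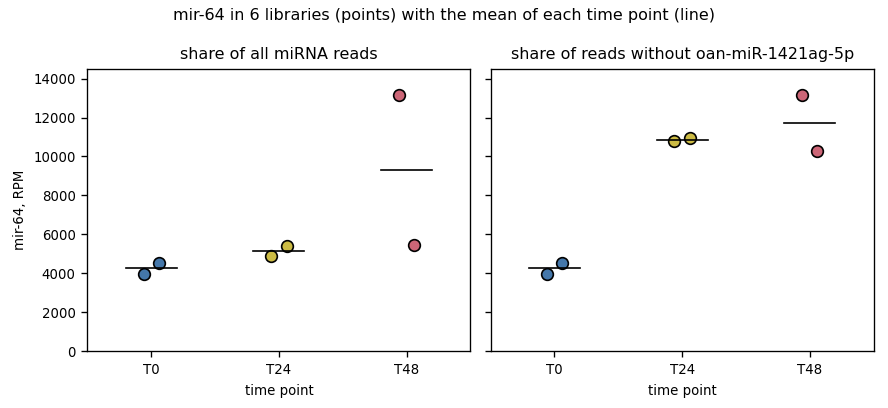
Each point is mir-64 in 1 library, in RPM of all miRNA reads (left) or of the reads without oan-miR-1421ag-5p (right), with a line at the mean of the 2 libraries of a time point. The T0 points are the same in both panels, and the T24 points move from 4895 and 5398 RPM to 10808 and 10928 RPM.

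Of the 57 members above 0 in any T0 or T24 library, 8 were called between T24 and T0, that is, they reached a 2-fold difference and a p of 0.05 or less before adjustment. Over all 394 miRNAs tested the share called was 13.2%, and 8 of 57 is 14%. Of the 8, 3 were higher at T24, where 5.33% of all miRNAs were called higher, and 5 were lower, where 7.87% of all were called lower. The members' share was thus close to that of the whole table. All 8 were listed at 0 in both T0 or both T24 libraries and passed the filter through the other time point alone. They therefore had to differ, and neither their number nor their p-values, given below as computed, support anything. A value of 0 was not taken as a counted 0, for reasons given with the single-library members, and no fold change is given against it.

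The 3 members called higher at T24 than at T0 were mir-52, mir-48 and mir-62, each listed at 0 in all T0 and T48 libraries. The most abundant, mir-52, stood at 936 and 916 RPM at T24 (119 and 123 reads), and its libraries differed 1.02-fold, the closest pair among the members. The values of mir-48 were 205 and 261 RPM (26 and 35 reads). Those of mir-62 were 157 and 201 RPM (20 and 27 reads). All 3 had an adjusted p of 0.0480 (limma, Benjamini-Hochberg over 394 miRNAs). They form the set of members present in both T24 libraries and in no other.

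The 5 members called lower at T24 were mir-63, mir-45, mir-40, mir-19 and mir-35. Each was present in both T0 libraries and listed at 0 in the 4 stored ones. At T0, mir-63 stood at 265 and 298 RPM (41 and 52 reads). The values of mir-45 were 439 and 212 RPM (68 and 37 reads). Both had a limma adjusted p of 0.0480. The remaining 3 were scarcer.

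At T0, mir-40 was listed at 71.1 and 132 RPM (11 and 23 reads) and had a limma adjusted p of 0.0510. The values of mir-19 were 77.5 and 120 RPM (12 and 21 reads). Those of mir-35 were 77.5 and 109 RPM (12 and 19 reads). Both of these had a limma adjusted p of 0.0507. At an adjusted p of at most 0.05, 5 members and 28 of all miRNAs were called. Leaving out any of the 4 libraries gave 15 to 26 called members, because a member with 1 value against 0 can then pass.

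The call of mir-45 at T24 against T0 rests on its name. Its precursor overlaps that of gra-miR8784, which had 34 reads in the second T24 library and none in the others. With both names summed, the reads were 68 and 37 at T0 and 0 and 34 at T24, and the difference was not called (limma adjusted p = 0.381). At T48 against T0 the sum was still called lower (limma adjusted p = 0.0727), against a time point listed at 0. How reads were divided between overlapping precursors is not given in the sources used here.

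Of the 54 members tested between T48 and T0, 6 were called and all were lower at T48. All 6 were listed at 0 in both T48 libraries and were tested through T0 alone, so their number, direction and p-values support nothing. Of all 369 miRNAs, 12.7% were called, with 4.07% higher and 8.67% lower. The 5 members called lower at T24 than at T0 were listed at 0 in both T48 libraries as well. Both comparisons use the same T0 libraries. Leaving out any of the 4 libraries gave 10 to 24 called members. Their limma adjusted p-values were 0.0859 for mir-45 and mir-63, 0.101 for mir-19 and mir-35, and 0.103 for mir-40.

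The sixth, mir-42, had 116 and 642 RPM at T0 (18 and 112 reads), 0 and 521 RPM at T24 (0 and 70 reads), and 0 in both T48 libraries (limma adjusted p = 0.104). Its T0 libraries differed 5.52-fold, the widest gap among members above 0 in both libraries of their time point. Without either T48 library in turn, mir-42 was no longer called. No member and none of the 369 miRNAs passed an adjusted p of at most 0.05, where 47 had passed the unadjusted threshold with a 2-fold difference.

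**Figure D4:**
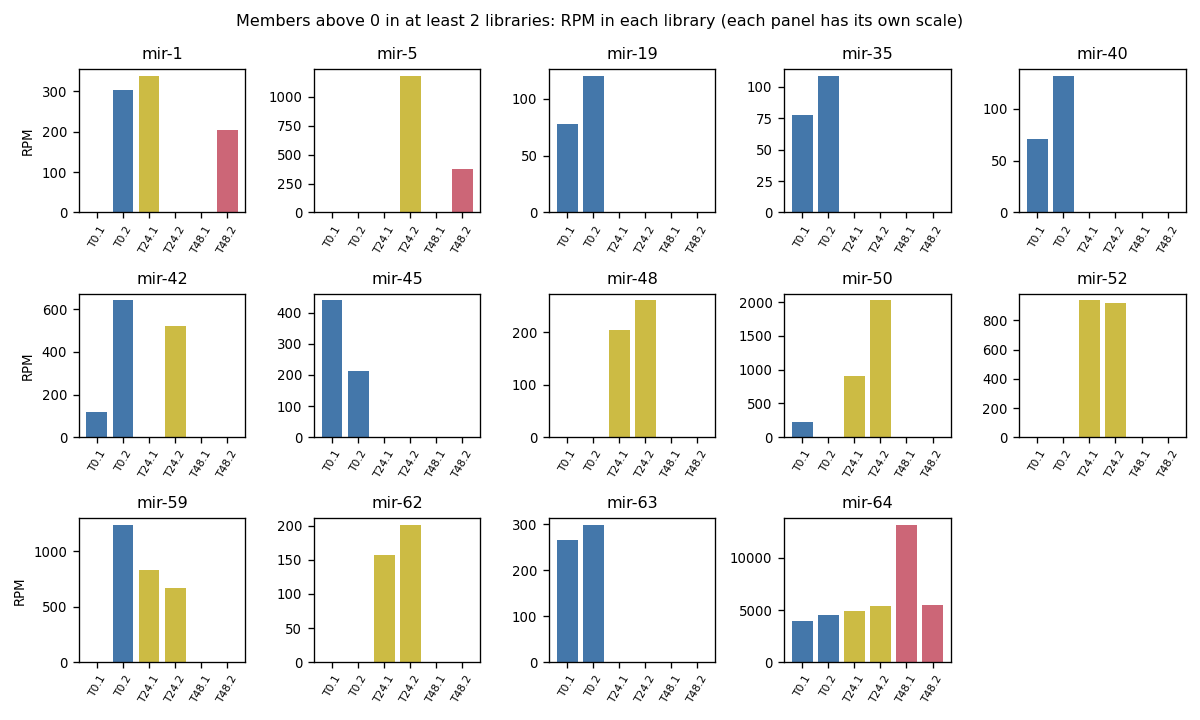
RPM of the 14 members above 0 in at least 2 libraries, with 1 bar per library (T0 blue, T24 yellow, T48 red) and a separate scale per panel. Bars of only one colour mark the 5 members found at T0 alone and the 3 found at T24 alone, and mir-64 has bars in all 6 libraries.

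Between T48 and T24, 39 members were tested and 5 were called, all lower at T48. All 5 were listed at 0 in both T48 libraries and were tested through T24 alone. Here too their number, direction and p-values support nothing. Of all 260 miRNAs, 10.8% were called, with 2.69% higher and 8.08% lower. Leaving out any of the 4 libraries gave 9 to 17 called members. The 5 comprised mir-52, mir-48 and mir-62 (limma adjusted p = 0.131, 0.156 and 0.156), together with mir-50 and mir-59. No member and no other miRNA passed an adjusted p of at most 0.05, where 28 miRNAs had passed the unadjusted threshold with a 2-fold difference.

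At T24 mir-50 stood at 913 and 2025 RPM (116 and 272 reads), the latter the highest value of a member other than mir-64 in that library, and it was listed at 0 in both T48 libraries (limma adjusted p = 0.131). At T0 it stood at 233 and 0 RPM (36 and 0 reads). A second name, mir-51, is listed at the same precursor and had 46 reads in the second T0 library, where mir-50 was at 0, and in no other. Summed, the pair had 233 and 264 RPM in the T0 libraries, 913 and 2025 in those of T24 and 0 in those of T48. The groups then did not overlap, with a log2 change of 2.45 (SE 0.93, limma adjusted p = 0.381) from T0 to T24, which was not called. The summed pair was called lower at T48 against T0 (limma adjusted p = 0.0727), where it was listed at 0.

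The values of mir-59 were 0 and 1237 RPM at T0 (0 and 216 reads), 834 and 670 RPM at T24 (106 and 90 reads) and 0 at T48 (limma adjusted p = 0.131). Its precursor overlaps that of mir-73, which had 46 reads in the first T48 library alone. Summed, the T48 libraries stood at 709 and 0 RPM, and the difference from T24 was not called (limma adjusted p = 0.457). In 4 further cases a member shared its place with a name that carries a species code. These were mir-44, mir-65, mir-21 and mir-16, each found in 1 library under its own name. Summed with gma-miR5030b and hsa-miR-6731-3p, mir-44 had 19 and 40 reads at T0, 0 at T24 and 31 and 60 reads at T48. This sum was called lower at T24 against T0 (limma adjusted p = 0.0486) and higher at T48 against T24 (limma adjusted p = 0.164), again against a time point listed at 0. The other 3 sums were not called.

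The 2 remaining members found in more than 1 library were not called in any comparison. In mir-5, 1184 RPM (159 reads) in the second T24 library and 375 RPM (75 reads) in the second T48 library stood against 0 in the other 4. In mir-1, 304 RPM (53 reads) in the second T0 library, 338 RPM (43 reads) in the first T24 library and 205 RPM (41 reads) in the second T48 library stood against 0 in the other 3. Both were above 0 in 1 library of each time point where they occurred and listed at 0 in its partner. Apart from mir-64, mir-1 was the only member listed at all 3 time points.

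Across the 14 cases in which a member was above 0 in both libraries of a time point, the libraries differed by a median of 1.34-fold, from 1.02-fold for mir-52 to 5.52-fold for mir-42. The gap was 2.07-fold for mir-45 at T0, 2.22-fold for mir-50 at T24 and 2.41-fold for mir-64 at T48. The other 10 cases lay under 2-fold.

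None of the members found in a single library of a comparison was called (0 of 44, 0 of 46 and 0 of 31 in the 3 comparisons, by limma before adjustment). With a single value above 0, the log2 change and its SE grow together. This outcome was therefore set by the test and is no result about these members. The 58 members found in 1 library were spread over all 6, with 17 and 11 in the T0 libraries, 7 and 8 in the T24 libraries and 11 and 4 in the T48 libraries. Their median was 29 and 28 reads in the T0 libraries, 10 and 20 in those of T24 and 23 and 17 in those of T48. They made up 0.555% and 0.427% of the reads for T0, 0.0645% and 0.156% for T24, and 0.747% and 0.266% for T48. In the first T48 library, all of the members' reads outside mir-64 belonged to members seen there alone.

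The 2 most abundant of them in each library show how large such a value could be. In the first T0 library, mir-60 stood at 1564 RPM (242 reads) and mir-38 at 698 RPM (108 reads). In the second T0 library, mir-53 stood at 1787 RPM (312 reads) and mir-10 at 1266 RPM (221 reads). Of these, mir-53, mir-60 and mir-10 lay above the 1237 RPM of mir-59, the highest T0 value of a member other than mir-64 that was found in several libraries.

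At T24 the single-library members were lower, with mir-30 at 197 RPM (25 reads) and mir-39 at 134 RPM (17 reads) in the first library. In the second, mir-72 stood at 521 RPM (70 reads) and mir-66 at 424 RPM (57 reads). At T48 they reached the highest values of the set. In the first library mir-71 stood at 4161 RPM (270 reads) and mir-73 at 709 RPM (46 reads). In the second, mir-32 stood at 2456 RPM (491 reads) and mir-27 at 90.0 RPM (18 reads). Both mir-71 and mir-32 exceeded every other member but mir-64 in their library, and each was listed at 0 in the partner library.

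If the share of reads were equal in both libraries, reads would be expected where most of these zeros stood. At the same share of reads, the partner library would have held 832 reads of mir-71, 159 of mir-32, 277 of mir-53 and 273 of mir-60. Over the 66 cases in which a member was above 0 in 1 library of a time point and at 0 in the other, 63 (95.5%) had an expectation above 3 reads in the empty library and 44 an expectation above 20 reads. Of the 377 such cases among the other miRNAs, 352 (93.4%) had an expectation above 3 reads and 131 one above 20 reads. In addition, no miRNA was listed with a single read, since the smallest value above 0 in a library was 2 to 4 reads. The expectation assumes an equal share in both libraries. A value of 0 was therefore not read as a counted 0, and no upper limit is given for it. Biological differences between the libraries and steps of the counting or listing cannot be told apart here.

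**Figure D5:**
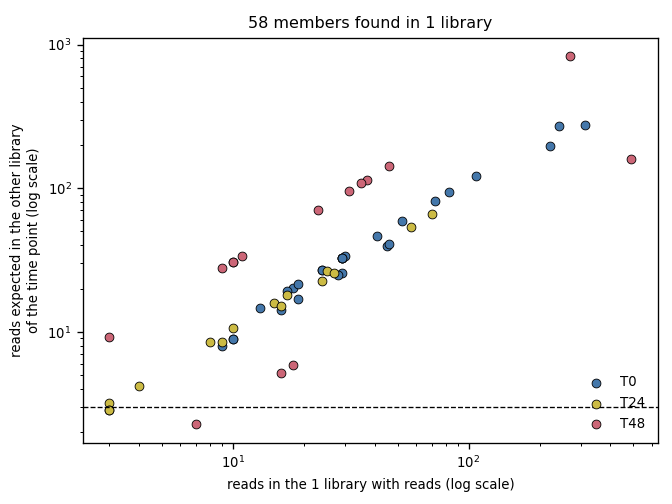
Each point is 1 of the 58 members found in a single library, with its reads in that library and the reads expected at the same share in the other library of the time point, where it was listed at 0 (both axes on a log scale). Nearly all points lie above the dashed line at 3 reads, up to 832 expected reads for mir-71 at T48.

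The median log2 change over the members tested was -3.39 at T24 against T0, -3.56 at T48 against T0 and -2.27 at T48 against T24. Over all miRNAs tested it was -2.66, -2.77 and -0.59. Of the members tested, 44 of 57, 46 of 54 and 31 of 39 had a single value above 0, which sets the size of these medians. The medians thus mostly set a value against a listed 0. They measure neither how far the members changed nor how members differ from all miRNAs.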

How the data were processed

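Small RNA libraries were prepared by the submitters from 1 μg of total RNA (SMARTer smRNA-Seq kit). According to the study's methods, the authors trimmed adapters with cutadapt and removed reads under 18 nucleotides or with a mean quality under 20. They matched reads to miRBase with Bowtie2 and miRDeep2, allowing 1 mismatch and 200 multi-mapping positions. The genome build is not given in the sources used here. The authors tested differences with DESeq2, and those results were not used.

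The deposited values, named TPM by the authors, are RPM values that sum to 1000000 per library. The smallest total that made all values of a library whole was taken as its read total. All 737 values above 0 (100%) then came out whole within 1e-06. Totals were 154758 and 174557 reads for T0, 127079 and 134312 for T24, and 64886 and 199911 for T48. Columns were assigned to samples through the library names in the labels, and 0 columns were left unused.

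Time points were compared with limma 3.58.1 in R 4.3.3 on log2(RPM + 1), fitted on the 4 libraries concerned, leaving out miRNAs at 0 in all of these. A call required a 2-fold change with p no higher than 0.05 before adjustment, as in the statistics section of the study. Its small RNA section gives an adjusted p of at most 0.5 instead, which was run as an alternative. Adjusted p-values are Benjamini-Hochberg values over all miRNAs tested. Folds on this scale understate the change of scarce miRNAs between values above 0. Against a listed 0 they depend on the pseudocount. Values for mir-64 were compared by exact permutation in Python 3.11.15 (pandas 2.3.3, numpy 2.4.6, scipy 1.17.1), and figures were drawn with matplotlib 3.10.9. The fit was tested on simulated data in which the libraries of a time point had the same mean shares. Zeros in place of many expected reads were not simulated, so this check does not cover them. A list of precursor positions from the study's supplement was used only to find overlapping precursors on the same strand.

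Named members are those above 0 in at least 2 libraries, those called, and the 2 highest single-library members of each library. Members, tests and lists were chosen with earlier results of these data known. Alternatives were other pseudocounts, filters, scalings, thresholds, a fit on all libraries, a replicate block, merged precursors and single libraries left out. The use of voom was added after the values were seen.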

Additional observations from a re-analysis of the deposited data

Results flagged for a closer look

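Among the 4 stored libraries, mir-64 stood at 13146 RPM in the first T48 library and between 4895 and 5457 RPM in the others. The gap to the nearest library was 0.932 of the whole range, beyond the 95% limit of Dixon's test for 4 values, which about 1 in 20 groups exceed by chance. This was also the library with the fewest reads, 64886, and the only stored library in which oan-miR-1421ag-5p was listed at 0. As a share of reads without that miRNA, the gap was 0.770 of the range and within the limit.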

How the results depend on the processing

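The numbers of members called were 8 for T24 against T0, 6 for T48 against T0 and 5 for T48 against T24. These numbers were the same with a pseudocount of 10 or 0.1, without a filter, with at least 2 libraries above 0, with median-of-ratios scaling and without oan-miR-1421ag-5p. Among miRNAs above 0 in all 4 libraries, 0, 0 and 0 members were called by limma, where mir-64 was the only member tested. An adjusted p of at most 0.05 left 5, 0 and 0, and one of at most 0.5, the second threshold in the study's methods, gave 55, 52 and 36. With limma's voom on the reads, 9, 11 and 7 were called. The fit on all 6 libraries gave 8, 5 and 4 and lost mir-42 (T48 against T0) and mir-59 (T48 against T24). With overlapping precursors merged, 8, 7 and 5 sets that hold members were called. Leaving out 1 library gave 15 to 26, 10 to 24 and 9 to 17 calls, where a lone library is assumed to vary like the other time point. For T48 against T24, the log2 change of mir-64 was 1.35 without the second T48 library and 0.086 without the first.

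With the replicate block, 5, 3 and 5 members were called, and mir-19, mir-35 and mir-40 lost their call in both comparisons with T0. Deviations of same-numbered libraries correlated at 0.024, -0.054 and 0.066 over miRNAs. Most miRNAs were above 0 in a single library of a comparison, which draws these values towards 0. The check could therefore hardly show pairing, and the main fit left the libraries unpaired.

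Detection in both libraries gave 7, 6 and 1 members at T0, T24 and T48 in place of 38, 24 and 18. Single libraries gave 20 to 25, 14 to 16 and 7 to 12. At the total depth of the shallowest library, 38.0, 23.5 and 17.9 members would be expected if a single read counted as detection. No miRNA was listed with a single read, and this floor was not applied. The effect of depth on the listed members was therefore not tested. Without mir-64 the mean share of reads on members was 0.708%, 0.568% and 0.536%, and at T24 it was 2.27% without oan-miR-1421ag-5p. The order of T0 and T24 turned without oan-miR-1421ag-5p, and that of T0 and T48 turned without mir-64. Leaving out 1 library moved the difference of mir-64 between stored and T0 libraries from 988 to 3738 RPM.

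The edgeR and DESeq2 alternatives were not run, because read numbers were inferred from values that include no single reads and were not accepted as counts. There were 2 libraries per time point, and zeros stood in libraries where an equal share would give reads. No difference between a member and 0 can therefore be given a size.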
